A study of Mus musculus with 6 samples.

Results

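The Toll-like receptors are the genes described here. The members were the probes whose gene name on the array was Tlr1, Tlr2, Tlr3, Tlr4, Tlr5, Tlr6, Tlr7, Tlr8, Tlr9 or Tlr13, which makes 10 of 37074 gene names and 21 of 56605 transcript probes. The rule is the gene name alone. Osteoclasts were raised from bone marrow of 3 Ano1fl/fl mice, which carry floxed alleles of the chloride channel gene Ano1, and of 3 Ctsk-Cre;Ano1fl/fl mice, which carry the same alleles with a Cre recombinase under the cathepsin K promoter. The Ano1fl/fl mice were littermates and served as controls. All 6 cultures received RANKL, the cytokine that drives osteoclast formation, for 5 days, and total RNA was hybridised to a single-colour Agilent mouse array. The methods' general protocol for such cultures uses mice of 6 to 8 weeks, RANKL at 50 ng/ml and, for survival of the precursors, the growth factor M-CSF at 30 ng/ml. The control arm carries no Cre, so the effect of Cre alone and that of the deletion cannot be told apart. The cathepsin K promoter is active in maturing osteoclasts, and not in the precursors that such a culture starts from. The background strain given for the majority of the study's lines is C57/BL6.

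Toll-like receptors are membrane proteins of macrophages, dendritic cells and other cells that recognise conserved molecules of microbes, and osteoclasts arise from the same myeloid precursors as macrophages. Some sit at the cell surface and bind lipids or proteins of the bacterial wall and flagellum. Others sit in endosomes and bind nucleic acids. All of them but Tlr3 signal through the adaptor Myd88, whereas Tlr3, and Tlr4 after its uptake, use Ticam1, and the signal ends in NF-kappa B, AP-1 and interferon regulatory factors that switch on cytokine and chemokine genes.

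By the mark of the scanner software, an array had 33480 to 34951 of its 59305 transcript spots well above background, and no spot was saturated. Arrays of a group correlated at 0.995 to 0.997 across the tested genes (Pearson's r, where genes are no replicates of each other), and arrays of different groups at 0.947 to 0.951. The single Ano1 probe gave processed signals of 3.22 to 3.91 on the Ano1fl/fl arrays and of 3.23 to 3.81 on the Ctsk-Cre;Ano1fl/fl arrays. None of the 6 arrays had it well above background, so it cannot check the labels, and every direction below follows the label of the arrays. The osteoclast marker genes described at the end were all higher on the arrays labelled Ctsk-Cre;Ano1fl/fl. That is the opposite of the direction the study gives for osteoclast markers in osteoclasts of this genotype. The study also gives c-Fos protein, read by western blot, as reduced in them. The RNA of Fos, described among the transcription factors, was lower on the arrays so labelled. The study read the osteoclast markers as RNA, so only their comparison is between like measures. Whether the labels were exchanged was not tested, and an exchange would turn every direction given here. Of the 20645 genes tested, 4839 were higher and 5987 lower on the Ctsk-Cre;Ano1fl/fl arrays at a limma adjusted p under 0.05. With the medians of the spots in place of the processed signals these were 2663 and 7170, and the median log2 difference over all genes went from -0.06 to -0.24.

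All 10 receptor genes could be tested. On the Ctsk-Cre;Ano1fl/fl arrays 2 of the 10 were higher, the surface receptors Tlr1 and Tlr2, against 23.4% of all genes tested. Another 5 were lower, Tlr5 of the surface receptors and Tlr3, Tlr7, Tlr8 and Tlr13 of the endosomal ones, against 29% of all genes. The remaining members, Tlr4, Tlr6 and Tlr9, did not pass the test, although for Tlr4 that depended on the probe. Tlr3 and Tlr5 were lower by more than 2-fold, 2 of 10 against 7.19% of all genes, and 0 were higher by as much, against 9.88%. Tlr5 passed the filter on dim probes only through the Ano1fl/fl arrays and so had to differ, and nothing is read from its place in these counts. Among genes above background on all 6 arrays, 4 of the 9 members tested were lower, against 5501 of all 18644 genes with that filter. Of these 4, only Tlr3 was lower by more than 2-fold, and all genes were not counted at that size with that filter. The median log2 difference of the members was -0.28, against -0.06 over all tested genes. Non-overlapping groups were found for 8 of the 10, against 64% of all genes. In such bulk RNA, fewer cells of a type and less RNA per cell cannot be told apart.

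**Figure D1:**
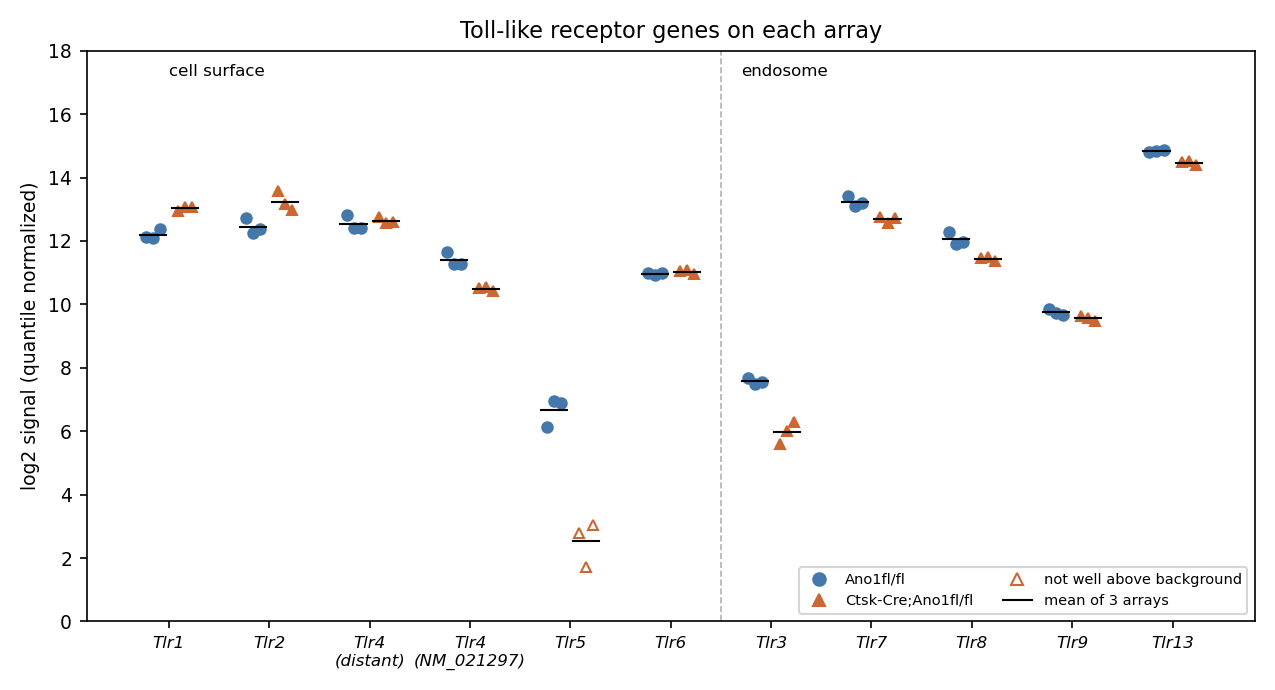
Normalized log2 signal of the probe that represents each Toll-like receptor gene, with a point for every array (3 Ano1fl/fl and 3 Ctsk-Cre;Ano1fl/fl) and a bar for each group mean. A further column, marked with its RefSeq record, holds the Tlr4 probe at position 3739 of its transcript. Tlr1 and Tlr2 lay higher and Tlr3, Tlr5, Tlr7, Tlr8, Tlr13 and that further Tlr4 probe lower on the Ctsk-Cre;Ano1fl/fl arrays. The Tlr4 probe that stood for the gene, marked as distant, and Tlr6 overlapped. Signals can be compared between groups for a gene but not between genes.

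Tlr2 recognises bacterial lipopeptides as a dimer with Tlr1 or Tlr6. The Tlr2 probe lies at mm9 chr3:83640344-83640403, at position 2645 of its transcript, and its log2 signal was 12.74, 12.24 and 12.37 on the Ano1fl/fl arrays. On the Ctsk-Cre;Ano1fl/fl arrays it was 13.58, 13.16 and 12.98. The lowest of these still lay above the highest Ano1fl/fl array, but the spread was wide in both groups, 0.26 and 0.31 (SD, n = 3). The difference was 0.79 with a standard error of 0.20, a 1.73-fold rise (limma adjusted p = 0.0166). This adjusted p was the highest among the members that passed. The call was lost without Ano1fl/fl replicate 2 (0.68, limma adjusted p = 0.0565), without Ano1fl/fl replicate 3 (0.75, limma adjusted p = 0.0537) and with the methods' t-test (adjusted p = 0.0568). The adjusted p over all alternatives ranged from 0.00542 to 0.0568.

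Tlr1, which adds the recognition of triacylated lipopeptides, was read by a pair of probes that lie close together on chromosome 5. The brighter one, at mm9 chr5:65315994-65316053, had log2 signals of 12.13, 12.10 and 12.36 on the Ano1fl/fl arrays and of 12.95, 13.08 and 13.08 on the Ctsk-Cre;Ano1fl/fl arrays. All 3 Ctsk-Cre;Ano1fl/fl arrays were above all 3 controls. The difference was 0.84 with a standard error of 0.10, a 1.79-fold rise (limma adjusted p = 0.000776). The other Tlr1 probe rose by 0.89. With the spot medians the difference of Tlr1 was 0.56, also past the test. Tlr6, the partner of Tlr2 for diacylated lipopeptides, lies next to Tlr1 in the genome, with its probe at mm9 chr5:65344365-65344424. Its log2 signals were 10.99, 10.93 and 10.98 on the Ano1fl/fl arrays and 11.04, 11.10 and 10.95 on the others. The groups overlapped, and the difference of 0.07 (standard error 0.07, limma adjusted p = 0.462) was no larger than the spread. It was -0.17 with the spot medians, where the median over all genes was -0.24.

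Tlr4 is the receptor for lipopolysaccharide, which it binds together with Ly96 (MD-2) after Cd14 has handed it over. The array held 3 probes under this name, and they did not move together. A pair of them matches the same RefSeq transcript, at its positions 359 and 3739, and the starts of the pair are 3380 bases apart both in the genome and in the transcript, so no intron lies between them. The other probe was designed on an Ensembl transcript and lies 87417 mm9 bases beyond the end of the pair. The first 30 of the 60 bases of each probe are shown because the reading of Tlr4 depends on which of them is used.
A_55_P2603039, position 359, mm9 chr4:66500344-66500403: ccagagtttttccccaggaagtttctctgg
A_51_P300806, position 3739, mm9 chr4:66503724-66503782: tgtgatagggctttaaatagttgagctaat
A_55_P2714823, the distant probe, mm9 chr4:66591199-66591258: tcttccatagtttgtgcttcatgtccctgc

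The probe at position 3739 of Tlr4 had log2 signals of 11.65, 11.26 and 11.27 on the Ano1fl/fl arrays and of 10.53, 10.53 and 10.42 on the Ctsk-Cre;Ano1fl/fl arrays. Every Ctsk-Cre;Ano1fl/fl array was below every control. It was lower by 1.86-fold, at a difference of -0.90 (standard error 0.12, limma adjusted p = 0.00155 over all probes). The Tlr4 probe at position 359 was dim but well above background on all 6 arrays, with log2 signals of 6.96, 6.62 and 6.29 on the Ano1fl/fl arrays and of 5.31, 5.62 and 5.07 on the others. Its groups did not overlap either, and it was lower by 2.45-fold (difference -1.30, standard error 0.21, limma adjusted p = 0.00293 over all probes). The distant Tlr4 probe, the brightest of the 3 and therefore the one that stood for the gene, read 12.83, 12.40 and 12.41 on the Ano1fl/fl arrays against 12.75, 12.55 and 12.60 on the Ctsk-Cre;Ano1fl/fl arrays. These values overlapped, with a difference of 0.09 (standard error 0.14, limma adjusted p = 0.609). Leaving out the distant probe, an alternative chosen after its position and values were seen, gave -0.90 for Tlr4 (limma adjusted p = 0.00156), and the mean of the 3 probes gave -0.70 (limma adjusted p = 0.00725). Over all alternatives the adjusted p ranged from 0.00156 to 0.98. Either of the last settings brings the lower members to 6 of 10. What RNA the distant probe binds was not tested.

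Over all 21 probes of the family, 3 were higher, against 21.8% of all probes tested, and 14 lower, against 30.6%. Of these, 4 were lower by more than 2-fold, against 8.11%. They were the Tlr4 probe at position 359, a probe of Tlr3 and both probes of Tlr5, which were tested only because they were above background on the Ano1fl/fl arrays.

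**Figure D2:**
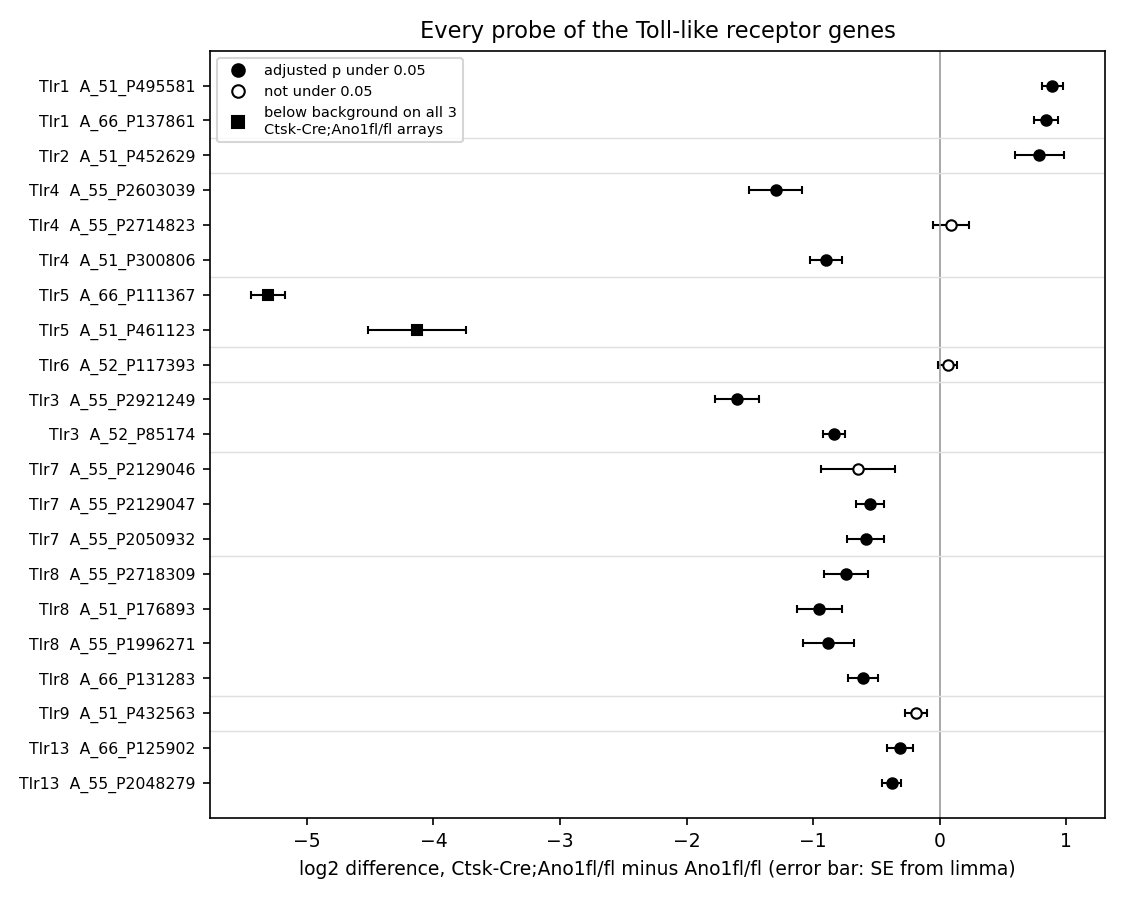
Log2 difference, Ctsk-Cre;Ano1fl/fl minus Ano1fl/fl, of each of the 21 probes of the Toll-like receptor genes, with its standard error from limma and n = 3 arrays a group. For 14 probes the signal was lower and for 3 higher at an adjusted p under 0.05, and of the 3 Tlr4 probes the distant one lay at 0.09 while the others lay at -0.90 and -1.30.

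Tlr5, the receptor for bacterial flagellin, had the largest difference of the 10 genes, and both of its probes lost their signal on the Ctsk-Cre;Ano1fl/fl arrays. They were designed on different transcript records, whose positions are given, and lie near each other on chromosome 1. Their first 30 bases are given because their differences were the largest of the 21 probes.
A_66_P111367, position 2793, mm9 chr1:184905770-184905829: acctccaggatgttggctggtttctcgata
A_51_P461123, position 3890, mm9 chr1:184906201-184906260: gcagcttcatgctttctgtgctgttcagtt

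The Tlr5 probe at position 3890 stood for the gene, and its log2 signal was 6.13, 6.94 and 6.89 on the Ano1fl/fl arrays. With 2.80, 1.72 and 3.05, all 3 Ctsk-Cre;Ano1fl/fl arrays failed the mark for signal well above background. As processed signals on a linear scale, the Ano1fl/fl arrays read 67.6, 136 and 144 and the others 7.97, 3.23 and 7.81. A value below background is only a bound, so Tlr5 was at least 6.02-fold lower, where each of those arrays enters at its own detection limit, the dimmest signal that it still marked as well above background, as was done for every "at least" below. The measured group means were 6.65 and 2.53 (limma adjusted p = 0.000411). This p and the one of the other probe carry no weight of their own, since both probes entered the test only through the arrays where they were bright. The Tlr5 probe at position 2793 read 6.73, 7.06 and 7.24 on the Ano1fl/fl arrays and was not well above background on the others, with means of 7.01 and 1.70, which makes it at least 7.71-fold lower (limma adjusted p = 4.96e-06 over all probes). The fitted difference of Tlr5 depends on how dim signals are treated. It was -4.13 as fitted, -2.40 with the spot medians and -1.61 after normexp background correction with an offset of 50, and these last values are smaller than the bound, which holds for the processed signals only.

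Among the endosomal receptors, Tlr3 binds double-stranded RNA and signals through Ticam1. The Tlr3 probe at mm9 chr8:46495198-46495257, near the start of the transcript, read 7.67, 7.48 and 7.56 on the log2 scale on the Ano1fl/fl arrays against 5.61, 6.00 and 6.29 on the Ctsk-Cre;Ano1fl/fl arrays. All 3 controls were higher. The gene was lower by 3.03-fold (difference -1.60, standard error 0.18, limma adjusted p = 0.00069). A second Tlr3 probe near the end of the transcript, at mm9 chr8:46481729-46481788, also fell, by 0.83, with values of 7.05, 7.12 and 7.16 against 6.37, 6.16 and 6.30. Both probes were lower, by different amounts. Without Ano1fl/fl replicate 1 this second probe became the brighter one, and the difference of Tlr3 was then -0.86, still past the test but under 2-fold, as it was after normexp correction (-0.997).

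Tlr7, which binds single-stranded RNA, and Tlr8, its close relative, lie side by side on the X chromosome. The Tlr7 probe at mm9 chrX:163743146-163743205 had log2 signals of 13.42, 13.09 and 13.21 on the Ano1fl/fl arrays and of 12.77, 12.56 and 12.73 on the Ctsk-Cre;Ano1fl/fl arrays. The groups were apart, and Tlr7 was lower by 1.47-fold (difference -0.55, standard error 0.11, limma adjusted p = 0.00697). A second Tlr7 probe gave -0.58. A dim one near the start of the transcript, well above background on 3 Ano1fl/fl arrays but on 1 of the 3 others, gave -0.65 with overlapping groups and did not pass (limma adjusted p = 0.107 over all probes). Tlr8 had 4 probes. The one that stood for it, at mm9 chrX:163679328-163679387, read 12.28, 11.89 and 11.98 on the Ano1fl/fl arrays and 11.47, 11.48 and 11.38 on the others. The groups of Tlr8 did not overlap, and it was lower by 1.52-fold (difference -0.61, standard error 0.12, limma adjusted p = 0.00552). All 4 Tlr8 probes were lower, with differences from -0.95 to -0.61.

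Tlr13, a receptor for bacterial ribosomal RNA, is also on the X chromosome. Its brighter probe, at mm9 chrX:103355773-103355832, read 14.81, 14.84 and 14.88 on the Ano1fl/fl arrays against 14.49, 14.53 and 14.39 on the Ctsk-Cre;Ano1fl/fl arrays. The fall of Tlr13 was small but larger than the spread, which was 0.03 and 0.07 (SD, n = 3). It was lower by 1.30-fold (difference -0.38, standard error 0.07, limma adjusted p = 0.00525), and the other Tlr13 probe gave -0.31. With the spot medians the difference of Tlr13 was -0.64, where the median over all genes was -0.24. Tlr9, the receptor for unmethylated CpG DNA, had log2 signals of 9.85, 9.74 and 9.65 on the Ano1fl/fl arrays and of 9.63, 9.58 and 9.48 on the others. The groups did not overlap, but the difference of -0.19 (standard error 0.08) did not pass (limma adjusted p = 0.108). Whether Tlr9 differs in this from the other endosomal members was not tested. Of 2 further receptors outside the 10, Tlr11 was below background on all 6 arrays, and Tlr12 had a difference of -0.37 that did not pass (limma adjusted p = 0.138).

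RefSeq promoter sequence of build GRCm38.p6, the 250 bases before a start, was at hand for 8 of the 10 members in 10 windows. The windows of Tlr3 and Tlr5, the genes that were lower by more than 2-fold, and the one of the pair of Tlr1 windows that held a match are printed with matches to the searched motifs in capitals.
Tlr1, chr5:64933559-64933808, minus strand: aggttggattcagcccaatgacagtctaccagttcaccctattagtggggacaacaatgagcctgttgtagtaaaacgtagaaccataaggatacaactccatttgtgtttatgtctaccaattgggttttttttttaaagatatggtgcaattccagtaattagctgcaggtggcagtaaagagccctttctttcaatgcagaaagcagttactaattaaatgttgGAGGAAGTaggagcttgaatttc
Tlr3, chr8:45410381-45410630, minus strand: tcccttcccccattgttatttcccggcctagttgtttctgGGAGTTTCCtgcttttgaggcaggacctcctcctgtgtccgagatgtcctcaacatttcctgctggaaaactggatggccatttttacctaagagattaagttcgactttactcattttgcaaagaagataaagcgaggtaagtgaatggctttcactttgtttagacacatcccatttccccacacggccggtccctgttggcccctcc
Tlr5, chr1:182954538-182954787, plus strand: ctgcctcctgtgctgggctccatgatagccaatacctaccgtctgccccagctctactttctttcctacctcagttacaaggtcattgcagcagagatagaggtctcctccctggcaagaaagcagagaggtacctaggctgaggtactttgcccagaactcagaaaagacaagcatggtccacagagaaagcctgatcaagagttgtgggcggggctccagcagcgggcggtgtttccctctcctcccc

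The motifs were searched on both strands. The PU.1 motif GAGGAAGT, named for the myeloid ETS factor, was in 1 of the 10 windows, that of Tlr1, 23 bases before the start, and in 2.44% of 32851 promoters. Its ETS core GAGGAA, which overlaps it, was in 4 windows and in 23.3% of promoters. The NF-kappa B motif GGANTTTCC was in the window of Tlr3, 210 bases before the start, and in 1.07% of promoters. The interferon regulatory factor motif GAAANNGAA was in 2 windows, of Tlr6 and Tlr8, and in 7.13% of promoters, and the AP-1 motif TGANTCA was in that of Tlr9 and in 6.75% of promoters. None of these motifs was found in the windows of Tlr5 and Tlr2, in the other Tlr1 window, chr5:64932700-64932949, or in the second window of Tlr6. A match is a stretch of letters and was not tested for binding.

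Partners that act directly with the receptors were compared in the same fit. Cd14, Ly96 and Unc93b1, the chaperone that carries the nucleic acid receptors to endosomes, did not pass, with differences of -0.13, -0.03 and -0.16 (limma adjusted p = 0.477, 0.751 and 0.323). With the spot medians Cd14 and Unc93b1 did pass, at -0.43 and -0.45, and Ly96 was at -0.24. Cd180, a relative of Tlr4 without its signalling domain, read 11.37, 11.50 and 11.89 on the Ano1fl/fl arrays and 10.57, 10.71 and 10.65 on the others. Its partner Ly86 (MD-1) read 15.25, 15.24 and 15.40 against 13.99, 13.66 and 14.15. Both were lower on all 3 Ctsk-Cre;Ano1fl/fl arrays, Cd180 by 1.92-fold (limma adjusted p = 0.00241) and Ly86 by 2.57-fold (limma adjusted p = 0.000484). Slc15a3, an endosomal transporter of peptides and histidine, rose 3.59-fold, from 12.44, 12.63 and 12.56 to 14.56, 14.33 and 14.26 (limma adjusted p = 6.07e-05). In all, 2 of the 12 tested co-receptors, chaperones and accessory proteins were higher and 4 lower, shares near the 23.4% and 29% of all genes, with a median difference of -0.14, while with the spot medians 1 was higher and 7 lower, against 12.9% and 34.7% of all genes in that setting.

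Of the 6 adaptor genes, 3 rose and 0 fell, against 23.4% and 29% of all genes, with a median difference of 0.42. Ticam1 (TRIF), the adaptor of Tlr3, was higher by 0.83 and Ticam2 (TRAM), which links it to Tlr4, by 1.42, with limma adjusted p = 0.000262 and 0.000319. The size for Ticam2 depended on the probe and the setting, since it was 2.31 to 2.40 without any single Ano1fl/fl array, 1.88 with the mean of its probes and 0.91 with the spot medians, each past the test. The reported probe read 6.07, 6.32 and 6.42 on the Ano1fl/fl arrays, too close together for such a move. With any of them left out, another Ticam2 probe was the brighter one and stood for the gene. Pik3ap1 (BCAP), which ties the receptors to phosphoinositide kinase, was higher by 0.88 (limma adjusted p = 0.000631). Myd88 itself had a difference of -0.15 and did not pass (limma adjusted p = 0.097), but in 6 alternatives, the spot medians among them (-0.43, limma adjusted p = 0.0255), it did, always as lower. Its adjusted p over the alternatives ranged from 0.0196 to 0.21. Tirap had a difference of 0.02 and Sarm1 one of -0.19, and neither passed (limma adjusted p = 0.863 and 0.217).

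Downstream, where the same 23.4% and 29% of all genes serve for comparison, the kinases and ubiquitin enzymes had 5 genes higher and 3 lower of 19, 0 of them by more than 2-fold, with a median of 0.05. The transcription factors had 5 higher and 4 lower of 12 and a median of -0.07. With the spot medians the higher genes were 3 of the kinases and ubiquitin enzymes and 2 of the transcription factors, against 12.9% of all genes in that setting. Their changes over 2-fold were Atf3, which is induced by stress and damps cytokine genes, higher by 1.33 (limma adjusted p = 0.000119), and Fos, a subunit of AP-1, lower by 1.52 on the log2 scale (difference -1.52, limma adjusted p = 7.09e-05). Negative regulators were higher in 8 and lower in 3 of 15, with a median of 0.38. Irak3 (IRAK-M), a kinase relative that blocks the pathway in macrophages, read 11.30 on average on the Ano1fl/fl arrays and 13.55 on the others, a 4.77-fold rise (limma adjusted p = 4.24e-05). Tnfaip3 (A20), an enzyme that edits ubiquitin chains on pathway proteins, rose 3.00-fold and Socs1, a suppressor of cytokine signalling, 2.40-fold (limma adjusted p = 0.000236 and 0.000728).

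Genes that the receptors can induce, a list that other signals including RANKL also induce in part, were higher in 17 and lower in 5 of 24 tested, against 23.4% and 29% of all genes. Their median difference was 2.26, and 16 rose by more than 2-fold, against 9.88%. Il1a, a cytokine of the IL-1 family, was below background on all 3 Ano1fl/fl arrays and well above it on the others, at least 27.7-fold higher, with means of 1.93 and 8.76 (limma adjusted p = 4.01e-06). It entered the test only through the arrays where it was bright and so had to differ. Without it 16 of the 23 inducible genes above background on all 6 arrays were higher, against 4141 of all 18644 genes with that filter. Its difference was 3.64 with the spot medians and 2.89 after normexp correction, both under that bound, which again holds for the processed signals only. The neutrophil-attracting chemokines Cxcl1 and Cxcl2 rose by 5.67 and 4.84 on the log2 scale (limma adjusted p = 1.85e-05 and 2.03e-05). The 5 that fell were Il12b, Ifnb1, Ccl5, Cd80 and Cd86, with differences from -0.95 to -0.68. Il23a was not well above background on the arrays of either group as a whole and was not tested. Of 12 other pattern sensors, 3 rose and 4 fell, shares near the 23.4% and 29% of all genes, with a median of 0.05. The 3 that rose were the C-type lectin receptors Clec4e (2.23), Clec7a (1.60) and Clec4n (1.19). Of those that fell, the sensor of cytosolic DNA Cgas (-1.22) and its effector Sting1 (-1.06) did so by more than 2-fold. Each of these 5 had a limma adjusted p of at most 0.0023.

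**Figure D3:**
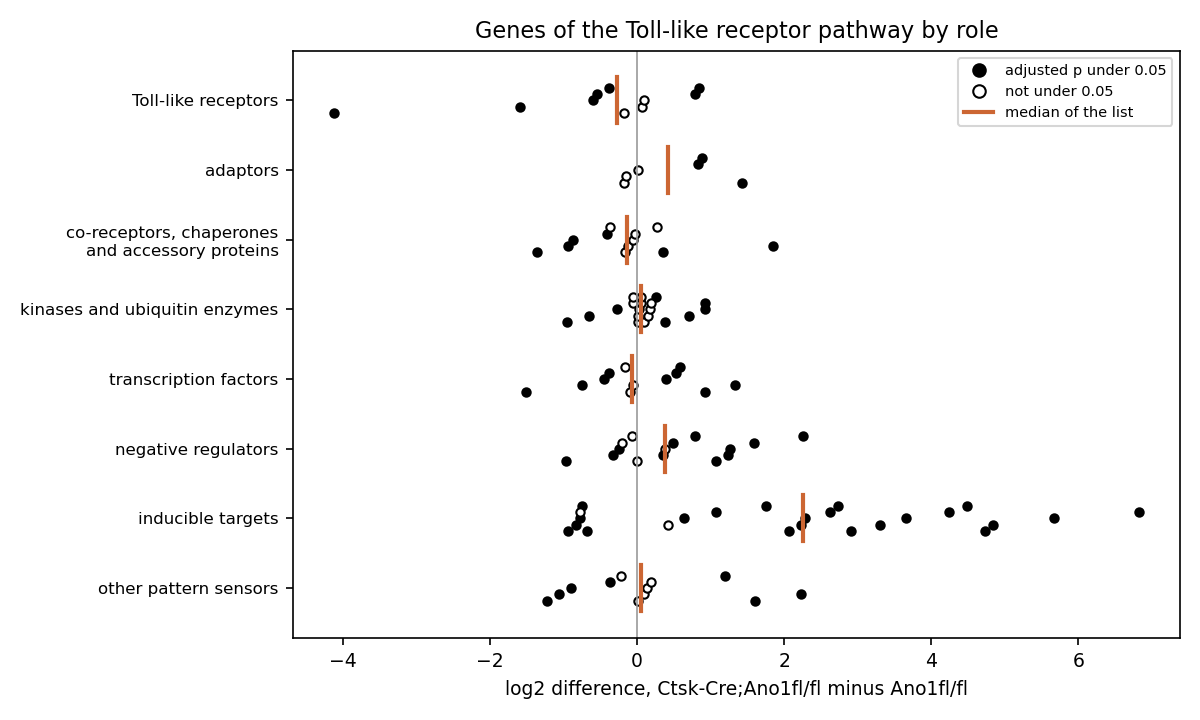
Log2 difference, Ctsk-Cre;Ano1fl/fl minus Ano1fl/fl, of each tested gene of the lists around the Toll-like receptors, with a point for every gene and a line at each list's median. The medians were 0.42 for adaptors, -0.14 for co-receptors, 0.05 for kinases, -0.07 for transcription factors, 0.38 for negative regulators, 2.26 for inducible targets and 0.05 for other sensors.

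Markers of the cell types that such a culture could hold moved between the groups, and their part in the receptor results was not tested. Their counts of higher and lower genes stand against the 23.4% and 29% of all genes, and nothing is read from a count near these shares. All 10 osteoclast genes were higher on the Ctsk-Cre;Ano1fl/fl arrays, and their sum, on the normalized signal put back on a linear scale, was 164000 to 178000 on the Ano1fl/fl arrays and 539000 to 608000 on the others. The defining osteoclast genes Ctsk and Acp5 were well above background on all 6 arrays and rose by 3.17 and 0.84, whereas Calcr was above it on 2 of the 3 Ano1fl/fl arrays, at means of 4.12 and 13.01, and entered the test through the Ctsk-Cre;Ano1fl/fl arrays. Macrophage markers were higher in 2 and lower in 5 of 10, with sums of 412000 to 428000 and 401000 to 451000 that overlapped. Of their defining genes, Adgre1 rose by 0.80 while Cd68 (0.20) and Csf1r (-0.04) did not pass. These are bright, and without all 3, the one that rose included, the sums were apart, at 123000 to 133000 on the Ano1fl/fl arrays and 71200 to 89500 on the others. The genes left out of this and later sums, and the counts over genes above background on all 6 arrays, were chosen after seeing the data. Cx3cr1 (-4.62) and Mrc1 (-1.36) fell by more than 2-fold, and Fcgr1 (-0.91), C1qa (-0.63) and C1qb (-0.42) by less. Beside Adgre1, Msr1 rose (0.75). Monocyte markers were lower in 5 of 6, and their sum was 340000 to 381000 on the Ano1fl/fl arrays and 130000 to 178000 on the others. Ccr2 had a difference of -3.36, Ly6c2 of -1.42 and Ly6c1 of -1.36, and the last pair is nearly identical in sequence, so the probes may not separate them. Neutrophil markers were lower in 6 and higher in 2 of 10, with sums of 326000 to 343000 and 234000 to 285000. The lower sum rested on Mpo, at means of 16.03 and 12.63, and without it the sums overlapped. Mpo (-3.41), Elane (-3.25), Cxcr2 (-2.17) and Ly6g (-2.07) were lower by more than 2-fold, and S100a8 (-0.60) and Ngp (-0.30) by less. Mmp8 (0.76) and Ltf (0.33) rose, while S100a9 (0.20) and Camp (-0.12) did not pass.

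B cell markers, genes of cells that carry Tlr7 and Tlr9, were higher in 7 and lower in 1 of 8 tested, with sums of 7120 to 8620 on the Ano1fl/fl arrays and 24400 to 47900 on the others. Blk entered the test only through the Ctsk-Cre;Ano1fl/fl arrays. Of the 7 above background on all 6 arrays 6 were higher, against 4141 of all 18644 genes with that filter. Cd79a rose by 2.79 and Cd79b by 1.83. Plasmacytoid dendritic cells carry the same receptors, and their markers were higher in 2 and lower in 1 of 8, with sums of 79000 to 84000 and 83500 to 89900. Their defining genes Siglech (-0.17), Bst2 (-0.04) and Tcf4 (0.13) did not pass. The 2 that rose were Spib (1.91) and Cox6a2 (1.86), and Runx2 (-0.46) fell. Bst2 made up most of the sum, and without it every Ctsk-Cre;Ano1fl/fl array lay above every control. Conventional dendritic cell markers were higher in 4 and lower in 1 of 6 tested, with sums of 7190 to 7640 and 10200 to 15200. Zbtb46 was lower (-0.67), Flt3 did not pass (-0.35) and Xcr1 was below background on all 6 arrays. The 4 that rose were Batf3 (0.82), Ccr7 (0.81), Clec9a (0.67) and Itgae (0.59). Ccr7 made up most of the sum, which without it was 1080 to 1330 and 1840 to 1960. Markers of T and NK cells were higher in 2 and lower in 2 of 8, with sums of 3450 to 3760 and 1920 to 2310, where Cd3e was lower (-0.51) and Cd3d (-0.35) and Cd8a (-1.10) did not pass. The lower sum rested on Nkg7 (-1.77), and without it the sums overlapped, at 1400 to 1530 and 1430 to 1570. The 2 that rose were the NK cell genes Klrb1c (2.66) and Ncr1, which was above background on 2 of the 3 Ano1fl/fl arrays. Stromal and osteoblast markers were higher in 9 of 10, or in 7 of the 8 above background on all 6 arrays, since Lum and Postn entered the test only through the Ctsk-Cre;Ano1fl/fl arrays. The sums over the 10 were 3430 to 3910 on the Ano1fl/fl arrays and 62600 to 104000 on the others, and Col1a1, Col1a2 and Pdgfrb rose by 6.12, 5.39 and 3.85.

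**Figure D4:**
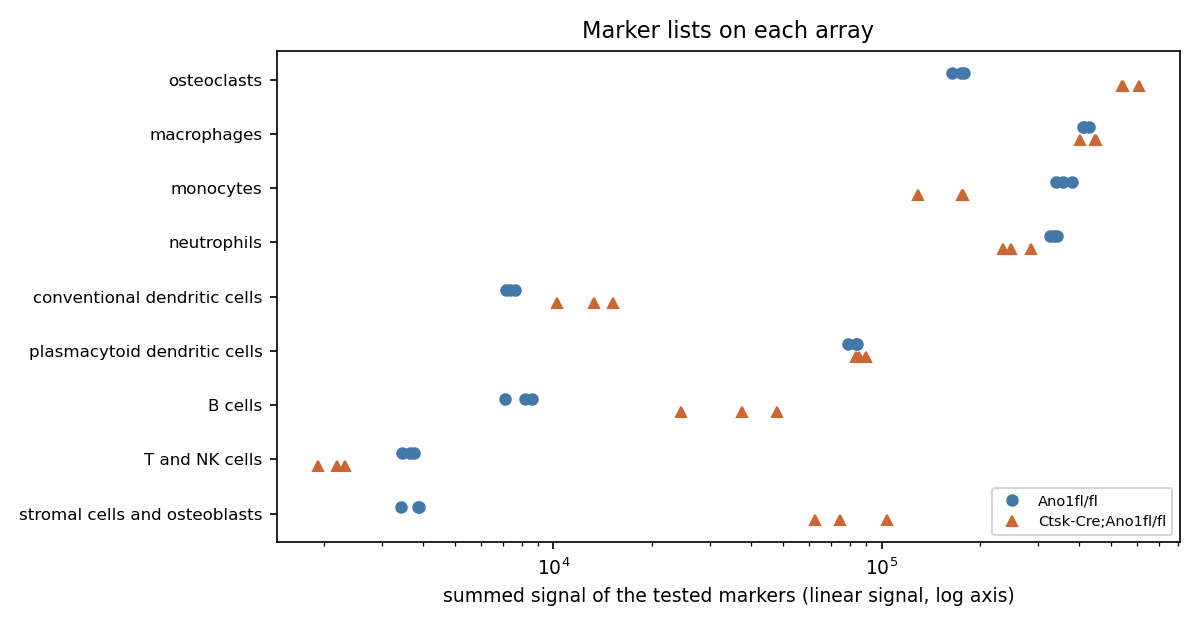
Summed normalized signal, put back on a linear scale, of the tested genes of each marker list on a log axis, with a point for each of the 3 Ano1fl/fl and 3 Ctsk-Cre;Ano1fl/fl arrays. Osteoclast, B cell and stromal sums were higher and monocyte and neutrophil sums lower on all 3 Ctsk-Cre;Ano1fl/fl arrays, while the macrophage sums overlapped. Without Mpo the neutrophil sums overlapped too.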

How the data were processed

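Osteoclast RNA of 3 Ano1fl/fl and 3 Ctsk-Cre;Ano1fl/fl mice was read on 6 Agilent arrays that shared 1 slide and 1 scan. The authors deposited the scanner intensity of every spot (Agilent Feature Extraction 10.7.1.1, per the submitters' processing notes), from which the software had removed background and spatial trends, and a series matrix whose 62973 intensities per array equalled the median brightness of the matching spots (largest difference 0). The quantile step named in the methods was therefore applied here.

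After outlier spots had been set to missing, the log2 of the processed signals was quantile normalized over the transcript spots and averaged per probe. Missing values removed 14 probes. The brightest probe stood for a gene name. A gene was tested where that probe was well above background (at least 0.5 of its spots) on all 3 arrays of a group. Groups were compared with limma 3.58.1 in R 4.3.3, with Benjamini-Hochberg adjustment over 20645 genes or, where said, over 31848 probes. An exact permutation test of 3 against 3 cannot go below p = 0.1 and was not used. Further tools were Python 3.11.15 with pandas 2.3.3, numpy 2.4.6 and matplotlib 3.10.9. The fit was tested on simulated data. Precision is limited by having 3 arrays a group.

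Gene names and mm9 (NCBI37) positions are those of the array files. By accession, 17 of the 21 member probes matched RefSeq under the same symbol. Ddx58, Mb21d1, Tmem173 and Irg1 on the array are given as Rigi, Cgas, Sting1 and Acod1. The members and lists were chosen with earlier results of these data known. The text names all members with every probe, the adaptors, 5 direct partners, up to 3 genes rising and 3 falling most among those past 2-fold in each list, and the first 3 genes of each marker list, except that a B cell marker is not reported here and was left out of its list. Genes outside this rule were chosen after their values were seen. The alternatives were other scaling, background correction, filters, probe rules, tests and omission of each array.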

Additional observations from a re-analysis of the deposited data

How the results depend on the processing

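For the 10 receptor genes, 16 alternatives, 15 of them planned, gave 152 values with the direction and the side of the threshold as reported, 3 that lost the threshold, all of Tlr2, and 4 that changed sign. The count of receptors lower by more than 2-fold, 2 as reported, was 1 after normexp correction, 1 with only genes above background on all 6 arrays, where Tlr5 is no longer tested, and 4 with every probe on its own, and it ranged from 1 to 2 with single arrays left out. The count of higher receptors was 1 with the methods' t-test and ranged from 1 to 2 with single arrays left out. The count of lower ones was 14 with every probe on its own, of 21 probes. Over all genes, 9747 probes were lower in place of 5987 genes, and with the spot medians 2663 genes were higher in place of 4839. Sign changes were those of Tlr4 (-0.17 with the spot medians, -0.70 with the mean of its probes, -0.90 without the distant probe), Tlr6 (-0.17 with the spot medians), Tirap (-0.028 with scaling to the 75th percentile, -1.99e-05 after normexp correction, -0.22 with the spot medians, and -0.016 to 0.042 with single arrays left out, below 0 without Ctsk-Cre;Ano1fl/fl replicate 2 or Ano1fl/fl replicate 3) and Ly96 (0.14 with the mean of its probes, and -0.068 to 0.014 with single arrays left out, above 0 without Ctsk-Cre;Ano1fl/fl replicate 3 or Ano1fl/fl replicate 2), none of which but the last pair of values of Tlr4 passed the test. The cause was not tested.

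The labels number the samples 1 to 3 in both groups, but nothing ties equal numbers to a shared litter or day, and deviations from the group means of same-numbered arrays correlated at -0.08 to 0.00. With the replicate block, 2 receptors were higher and 5 lower, and 4200 genes were higher and 5079 lower. Signals near background limit Tlr5, Tlr3 and the dim probes of Tlr4, Tlr7 and Tlr8.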
